A study of Mus musculus with 16 samples.

Results

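Cell cycle and DNA replication genes were followed in mouse liver: 38 genes, named in advance as a module, of which 15 act at the start of S phase and in DNA synthesis, 22 act from G2 through mitosis and 1, Ccnd1, acts in G1. A gene was taken from the probes whose platform annotation carries its symbol, with the brightest probe standing for it. Of the 38, 35 had a probe among the 16593 gene symbols on the array, and 30 of those were detected above background and tested among 11338 features in all. The livers came from 10 week old male FVB mice of 2 genotypes, wild-type and LKB1 lox/lox, the second labelled as a knockout specific to the liver. LKB1, encoded by Stk11, is the kinase upstream of AMPK, the energy sensor that AMP switches on. The mice of each genotype had received mineral oil, carbon tetrachloride (CCl4, a toxicant that kills hepatocytes), saline or AICAR (a nucleoside that cells turn into an activator of AMPK), which gave 8 groups of 2 arrays. The sources used here do not give how the recombinase was delivered, the doses or the times after treatment. Arrays of a group are labelled biological replicates, with none tied to a separate animal, so the spread between them may be technical.

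Most hepatocytes of an adult liver rest outside the cell cycle and can return to it after injury. Cyclin D made in G1 activates kinases that release E2F transcription factors, which turn on the genes for loading the MCM helicase, making nucleotides and copying DNA. The genes of G2 and mitosis follow, many of them through CCAAT boxes bound by NF-Y and through the element named CHR, which the DREAM and MuvB complexes bind, and their proteins build the spindle, separate the chromosomes and divide the cell.

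The upstream sequences show how the S phase and mitotic members differ in these elements. In the RefSeq promoter table (build GRCm38.p6), 31 of the 38 members matched by symbol, with 33 windows among them, since some genes have more than 1 listed start. Ccna2, Ccnd1, Ccne2, Mcm4, Aurkb, Kif20a and Foxm1 are named only. The 250 bases before each start were searched on both strands for CCAAT, for the CHR element (TTTGAA or TTTAAA) and for E2F-like sites (TTCCCGC or TTGGCGC or TTCGCGC or TTGCCGC). Matches of different elements may share bases, and TTTAAA reads the same on both strands. CCAAT was present in 89.5% of 19 mitotic windows, in 64.3% of 14 S phase windows and in 33.8% of all 32851 windows. The CHR letters were present in 63.2% of the mitotic windows, 28.6% of the S phase windows and 25.2% of all windows. The E2F-like letters had the opposite order, with 15.8% of the mitotic windows, 50% of the S phase windows and 7.89% of all windows. These matches describe the letters of the reference and say nothing of binding in these livers. The 150 bases before the start are printed for the 3 mitotic and the 3 S phase members that have a window and had the smallest unadjusted p-values in the comparisons below, 5′ to 3′ on the gene's strand, with matches in capitals:
Plk1 (chr7:122159285-122159434, plus strand): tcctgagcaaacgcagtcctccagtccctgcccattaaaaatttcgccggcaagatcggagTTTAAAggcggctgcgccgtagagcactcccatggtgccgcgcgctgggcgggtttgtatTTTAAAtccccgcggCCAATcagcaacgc
Nusap1 (chr2:119618148-119618297, plus strand): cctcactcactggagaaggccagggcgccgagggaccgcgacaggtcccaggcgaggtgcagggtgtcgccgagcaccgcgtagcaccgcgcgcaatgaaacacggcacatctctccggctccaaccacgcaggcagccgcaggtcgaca
Cdca3 (chr6:124830026-124830175, plus strand): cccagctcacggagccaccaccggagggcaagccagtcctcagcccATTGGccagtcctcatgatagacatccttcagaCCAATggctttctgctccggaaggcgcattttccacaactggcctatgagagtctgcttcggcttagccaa
Tk1 (chr11:117826015-117826164, minus strand): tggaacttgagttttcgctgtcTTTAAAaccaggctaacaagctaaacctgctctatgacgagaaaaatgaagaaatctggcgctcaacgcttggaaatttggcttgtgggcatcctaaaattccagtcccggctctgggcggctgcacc
Pcna (chr2:132253181-132253330, minus strand): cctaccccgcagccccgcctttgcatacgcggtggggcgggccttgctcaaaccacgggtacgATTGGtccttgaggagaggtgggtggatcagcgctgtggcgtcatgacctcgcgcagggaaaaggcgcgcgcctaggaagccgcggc
Rrm2 (chr12:24708104-24708253, plus strand): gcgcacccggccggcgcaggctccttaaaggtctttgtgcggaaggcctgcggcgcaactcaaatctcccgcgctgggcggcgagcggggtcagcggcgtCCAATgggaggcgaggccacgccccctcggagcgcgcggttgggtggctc
Plk1 carries a CCAAT box and a pair of TTTAAA matches, and Cdca3 a CCAAT box on each strand (ATTGG is CCAAT on the other strand). The Nusap1 window holds no match to any of these letters, so its stretch has no capitals. Of the S phase members shown, Pcna and Rrm2 each have a CCAAT box and Tk1 has TTTAAA. The E2F-like match of Rrm2 begins 235 bases before the start, outside the stretch printed.

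Across the 16 arrays the median probe signal was 172.4 to 213.7. Of 25697 probes, an array detected 12233 to 13730, where detected means a detection p-value under 0.05. Values below are log2 of the background-corrected, quantile-normalized signal, in which 1 unit is a doubling. The liver genes Apoa1, Apoa2 and Ttr had log2 signals between 15.6 and 16.1 on each array, near the top of the scale. Of the other hepatocyte markers on the same list, Cps1 (14.03 to 15.89), Ass1 (13.62 to 15.41) and Hnf4a (12.84 to 13.96) were also bright. The probes of some others were dim. Alb had only 5.23 to 6.97, and Fgb and Tat were not above background on at least 2 arrays. Stk11 had log2 signals of 10.04 to 10.38 on the wild-type arrays and 8.94 to 9.54 on the knockout arrays, so the genotypes did not overlap. Which exons its probe covers is not known here. The 2 knockout saline arrays differed by noise alone: in 1904 pairs of probes that share a gene, the differences between the arrays had a correlation of 0.014 (95% interval -0.031 to 0.059), against 0.47 or more for the other 119 array pairs. They were counted as 1 sample, with no spread of its own, in each comparison and group mean below that uses that group. Signals, gaps and extremes given per array keep them apart.

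Of the 35 members with a probe, 28 were detected on all 16 arrays, Bub1b on 15 and Kif11 on 10. Ccna2, Ccnb2, Bub1, Kif20a and Ube2c were not detected on any array, and Ccnb1, Mki67 and Aurkb had no probe. Cyclin A2 (Ccna2), which drives S phase and entry into mitosis, had log2 signals of 4.5 to 5.22, which is the level of the background. The proliferation antigen Ki-67 (Mki67) and cyclin B1 (Ccnb1) could therefore not be followed, nor could cyclins A2 and B2. Ccnd1, cyclin D1, was the member with the brightest probe, with a mean deposited signal of 15285.5. Brightness of different probes does not rank the genes, and each gene is compared only with itself.

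**Figure D1:**
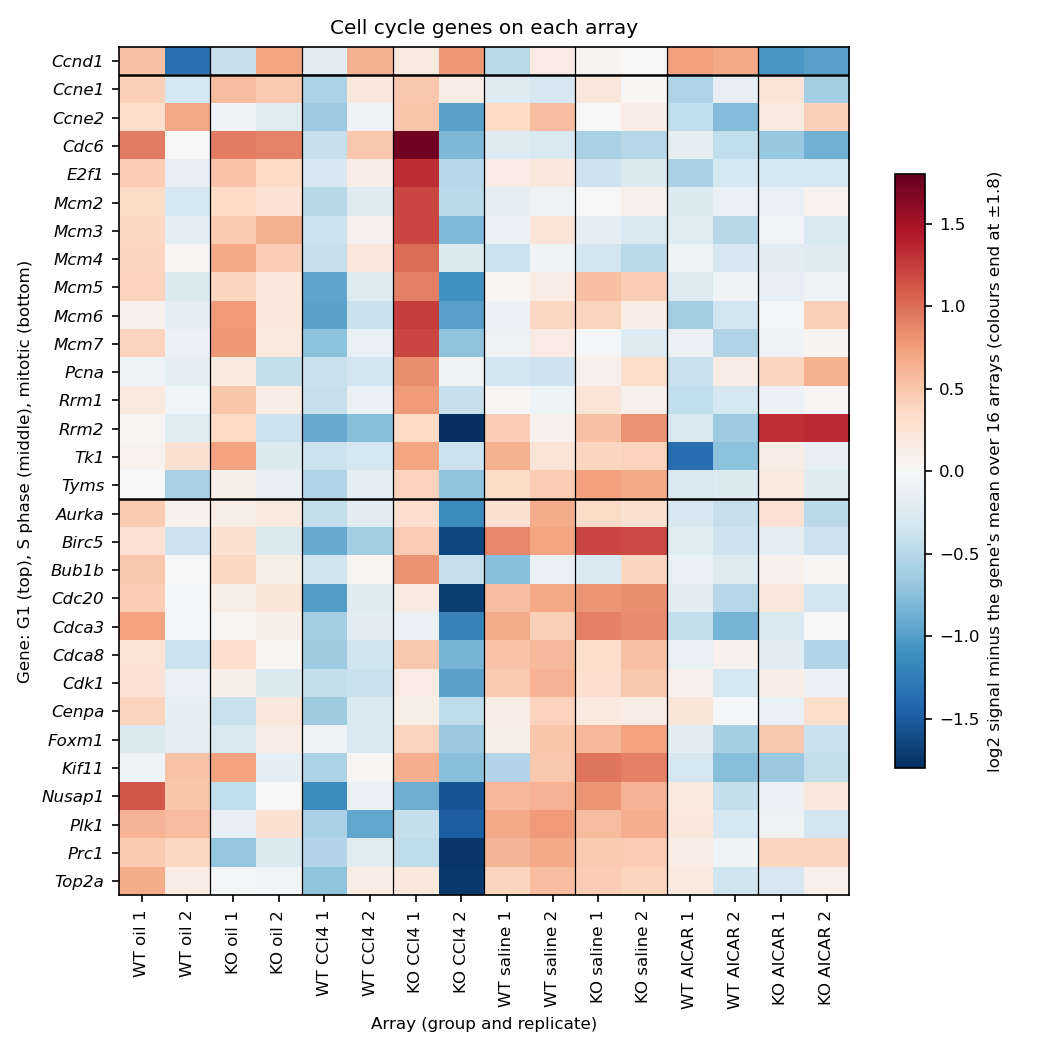
Log2 signal of the 30 tested genes (vertical axis, grouped as G1, S phase and mitotic) on each of the 16 arrays (horizontal axis), as the difference from the gene's own mean over the arrays. The pair of knockout CCl4 arrays stand at opposite ends: replicate 1 is the highest array for 11 genes and replicate 2 is the lowest for 17.

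The arrays of knockout liver after CCl4 differed more from each other in these genes than any other pair of a group. Of the 30 members, 29 were higher in replicate 1 than in replicate 2, by a median of 1.32 log2 units, while the median size of the gap over all features was 0.31 and 50.9% of them were higher in replicate 1. In bulk liver RNA, fewer cells of a type in cycle and less RNA per cell cannot be told apart. The 15 S phase members were all higher in replicate 1, by a median of 1.7, and so were the 14 mitotic members, by a median of 1.26. Cdc6, which loads the MCM helicase onto replication origins, had the widest gap, at 2.56 (9.24 against 6.69). The MCM subunits Mcm2 (10.51 and 8.82), Mcm5 (12.12 and 10.12) and Mcm6 (11.03 and 8.81) were also far apart. Top2a, the topoisomerase that untangles replicated chromosomes, gave 8.51 and 6.58. Ccnd1 alone ran the other way, with 13.89 in replicate 1 and 14.51 in replicate 2. Replicate 1 was the highest of the 16 arrays for 11 members, against 9.83% of all features, and replicate 2 was the lowest for 17, against 5.75% of all features. For each comparison that uses this group, the class medians are therefore given with and without each of its arrays.

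Markers of other cell types also differed between the arrays of knockout liver after CCl4. None of 9 tested Kupffer cell and macrophage markers was higher in replicate 1 (median -0.96, summed signal 18914 in replicate 1 and 35414 in replicate 2). Of 6 lymphocyte markers 1 was higher (median -0.58, summed signal 900 and 1228), and Cd4, Cd8a, Cd79a and Ms4a1 were not above background on at least 2 arrays. Of 10 neutrophil markers 2 were higher (median -0.87, summed signal 31068 and 57556). That sum rested mostly on Lcn2, which hepatocytes also make, with log2 signals of 14.8 and 15.64. Hepatocyte markers went the other way, with 6 of 8 higher in replicate 1 (median 0.27, summed signal 336995 and 279905). The array with the higher cell cycle genes was thus the one with the lower leukocyte markers, and the part of either in the other was not tested.

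The other groups had smaller gaps. In wild-type liver after CCl4, 28 of 30 members were lower in replicate 1, by a median of 0.41 in size, where all features had a median gap size of 0.22. Higher in that replicate were 0 of 6 lymphocyte markers (median -0.83), 3 of 9 Kupffer cell markers (-0.36) and 2 of 10 neutrophil markers (-0.28). In wild-type oil, 26 of 30 were higher in replicate 1, by a median of 0.49, and the lymphocyte markers were higher there in 6 of 6 (median 1.46) and the Kupffer cell markers in 9 of 9 (median 0.87). In knockout oil, 20 of 30 were higher in replicate 1, by a median of 0.17, among them 14 of 15 S phase and 6 of 14 mitotic members. There the leukocyte classes themselves went different ways, with 0 of 9 Kupffer cell markers (median -1.25), 1 of 6 lymphocyte markers (median -1.01) and 9 of 10 neutrophil markers (median 1.01) higher in replicate 1. The summed neutrophil signal ran against that count, with 21042 in replicate 1 and 48751 in replicate 2. It followed Lcn2, which had log2 signals of 14.03 and 15.48. The saline and AICAR groups gave medians between -0.1 and 0.22. The leukocyte markers thus had no single relation to the cell cycle genes. Most lay on the same side between the wild-type oil arrays and between the wild-type CCl4 arrays. They lay mostly on the opposite side between the knockout CCl4 arrays, and were divided between the knockout oil arrays.

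**Figure D2:**
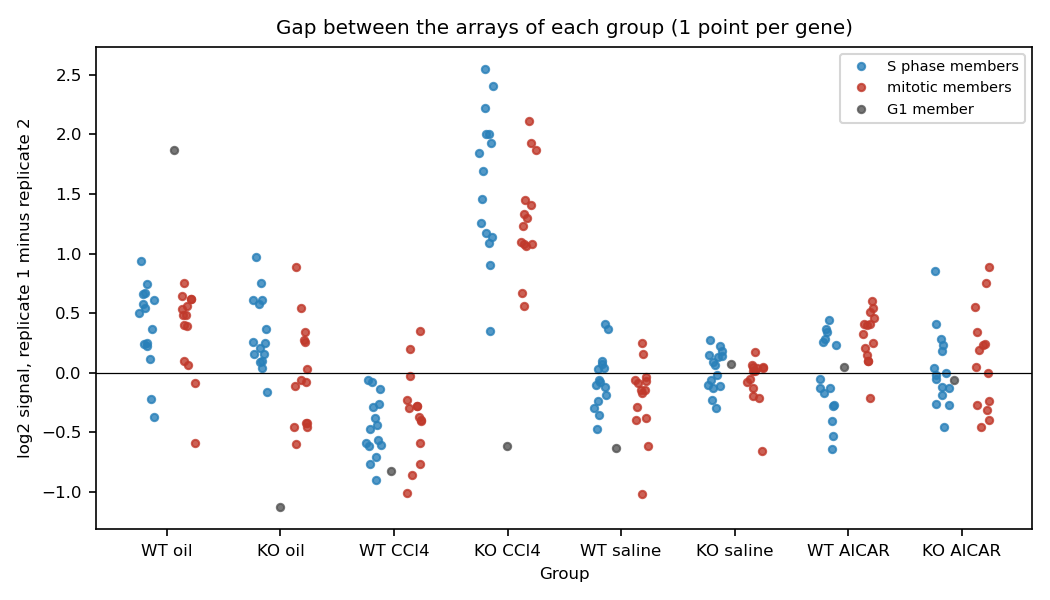
Log2 signal of replicate 1 minus replicate 2 (vertical axis) for each of the 30 tested genes in each of the 8 groups (horizontal axis), 1 point per gene, in blue for S phase, red for mitotic and grey for Ccnd1. The points of knockout CCl4 lie between 0.35 and 2.56 apart from Ccnd1, which lies at -0.62.

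Further members had their extreme values on several arrays. Among the S phase genes, E2f1, the transcription factor of S phase entry, ranged from 8.83 in wild-type AICAR replicate 1 to 10.74 in knockout CCl4 replicate 1. The helicase subunits Mcm3 (7 to 9), Mcm5 (10.12 to 12.12) and Mcm7 (6.08 to 8.03) and the ribonucleotide reductase subunit Rrm1 (8.82 to 10.03) also had their highest value there. Most of the mitotic members given here were highest elsewhere. The spindle pole kinase Aurka (7.18 to 8.99), the anaphase activator Cdc20 (7.64 to 10.19), the passenger complex subunits Birc5 (7.38 to 10.24) and Cdca8 (6.53 to 7.95) and the transcription factor Foxm1 (5.99 to 7.39) were each highest on a saline array and lowest in knockout CCl4 replicate 2. Cenpa, the centromere histone, ranged from 10.4 in wild-type CCl4 replicate 1 to 11.46 in wild-type saline replicate 2. Bub1b, a spindle checkpoint kinase, was the exception among the mitotic genes named here, with its lowest value, 5.58, in wild-type saline replicate 1 and its highest, 7.14, in knockout CCl4 replicate 1.

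The S phase and mitotic members did not keep the same order across groups. Each gene was centred on its mean over the arrays and the members of a class were averaged, as a description with no test. The S phase mean was 0.06 and 0.11 in wild-type and knockout saline, 0.1 and 0.33 in oil, -0.34 and 0.13 after CCl4, and -0.37 and 0.04 after AICAR. The mitotic mean was 0.47 and 0.61 in saline, 0.28 and 0.05 in oil, -0.4 and -0.48 after CCl4, and -0.18 and -0.05 after AICAR. The saline livers thus had the highest mitotic means, and the knockout had the higher S phase mean with each agent, although after CCl4 its arrays lay at 0.93 and -0.67. The S phase mean minus the mitotic mean ran from -0.5 in knockout saline to 0.61 in knockout CCl4, where it was 0.76 in replicate 1 and 0.46 in replicate 2. On that measure the pair of knockout CCl4 arrays lay among the highest, although their levels were far apart.

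**Figure D3:**
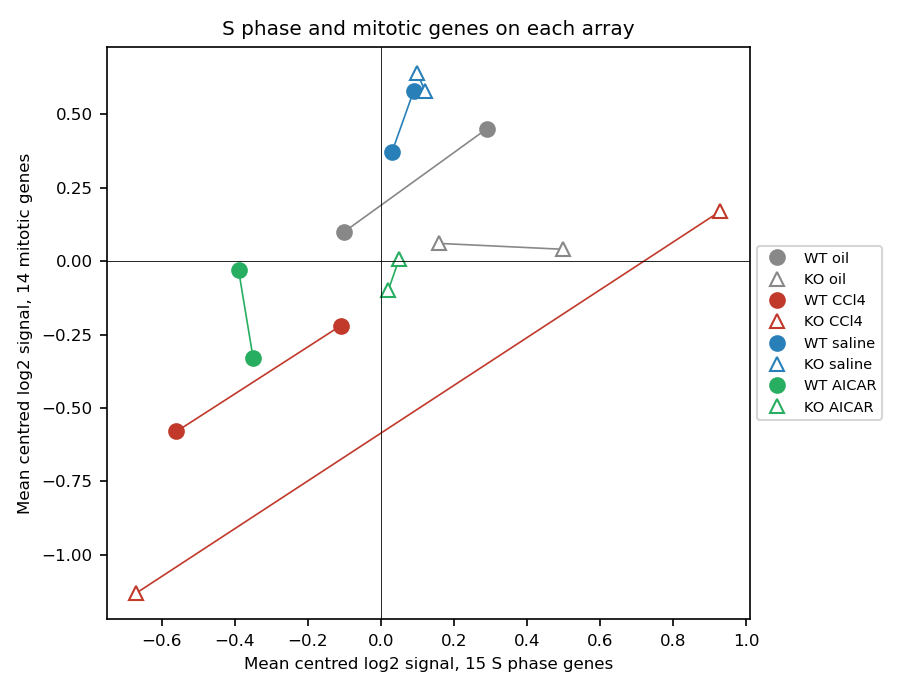
Mean centred log2 signal of the 15 S phase genes (horizontal axis) against that of the 14 mitotic genes (vertical axis), 1 point per array, with filled circles for wild-type, open triangles for knockout and a line joining the arrays of a group. The knockout CCl4 arrays lie at 0.93 and 0.17 (replicate 1) and at -0.67 and -1.13 (replicate 2), while the saline arrays lie between 0.37 and 0.64 on the vertical axis.

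The comparison of CCl4 with mineral oil in wild-type liver asked how the toxicant had changed these genes. After CCl4 28 of the 30 members had lower values, where 48.9% of all features did, and the median difference was -0.5 log2 units beside 0.0089 over all features. None passed the threshold of an adjusted p of 0.05 (limma, Benjamini-Hochberg over all features), and 0% of all features did. At an unadjusted p under 0.05, 3 members were lower, where 4.12% of all features were. Plk1, the kinase that drives spindle assembly, had log2 signals of 8.91 and 8.85 in oil and of 7.71 and 7.36 after CCl4, a difference of -1.35 ± 0.32 (SE; limma adjusted p = 0.43, 2 against 2 samples). Nusap1, which bundles spindle microtubules, had 9.71 and 9.09 in oil and 7.46 and 8.47 after CCl4 (-1.44 ± 0.37, limma adjusted p = 0.43). Prc1, which crosslinks the microtubules of the central spindle, had 10.47 and 10.37 in oil and 9.48 and 9.78 after CCl4 (-0.79 ± 0.34, limma adjusted p = 0.53). For these 3 mitotic genes the groups did not overlap, and each CCl4 array lay below both oil arrays. The same held for 17 of the 30 members, where 17.9% of all features did so downward. The 14 mitotic members had a median of -0.64, with 13 lower, and the 15 S phase members a median of -0.38, with 15 lower. The S phase median was -0.2 without wild-type oil replicate 1, -0.61 without wild-type oil replicate 2, -0.22 without CCl4 replicate 1 and -0.63 without CCl4 replicate 2, and the mitotic median was -0.4 without wild-type oil replicate 1. Of 10 neutrophil markers 8 were higher after CCl4 (median 0.62). Their summed signal, 39602 and 12660 in oil and 52503 and 51182 after CCl4, followed Lcn2 (15.11 and 13.21 against 15.52 and 15.43). The summed signal of the Kupffer cell markers overlapped (35050 and 18208 in oil, 27134 and 34601 after CCl4). The part of those cells in these values was not tested.

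Among the S phase members after CCl4 in wild-type liver, Ccne2, the cyclin E2 that starts S phase, came nearest to the threshold. It had 7.6 and 7.97 in oil and 6.62 and 7.21 after CCl4 (-0.86 ± 0.39, limma adjusted p = 0.54). Rrm2, the ribonucleotide reductase subunit that limits deoxynucleotide supply, had 8.09 and 7.85 in oil and 7.16 and 7.3 after CCl4 (-0.74 ± 0.58). Pcna, the sliding clamp of DNA polymerase, had 7.81 and 7.7 in oil and 7.48 and 7.54 after CCl4 (-0.25 ± 0.31). In each of the 3 the CCl4 arrays lay below the oil arrays, by less than the fit could separate from the spread. Cdk1, the kinase of mitotic entry, had 9.39 and 8.99 against 8.7 and 8.73 (-0.48 ± 0.32, limma adjusted p = 0.67). Top2a had 8.99 and 8.46 against 7.6 and 8.46 (-0.7 ± 0.52, limma adjusted p = 0.7).

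In the knockout, CCl4 gave lower values than oil for 27 of 30 members, where 46.1% of all features were lower, with a median of -0.34 beside 0.02. None passed (limma, 0% of all features called), and 2 were lower at an unadjusted p under 0.05, where 1.86% of all features were. These were again Plk1, with 8.15 and 8.57 in oil and 7.87 and 6.81 after CCl4 (-1.02 ± 0.32, limma adjusted p = 1), and Nusap1, with 8.14 and 8.6 in oil and 7.71 and 7.04 after CCl4 (-0.99 ± 0.37, limma adjusted p = 1). Both genes were lower on each CCl4 array than on either oil array, which held for 3 of 30 members, where 11.9% of all features did so downward. Pcna had 8.06 and 7.45 in oil and 8.72 and 7.82 after CCl4 (0.52 ± 0.31, limma adjusted p = 1). Cdk1 had 9.23 and 8.89 against 9.27 and 8.17 (-0.34 ± 0.32), and Top2a had 8.3 and 8.27 against 8.51 and 6.58 (-0.74 ± 0.52). The groups overlapped in these 3 genes. The medians of the classes turned on which CCl4 array was used. The S phase median was -0.2 with both, -0.83 without replicate 1 and 0.64 without replicate 2. The mitotic median was -0.6 with both, -1.27 without replicate 1 and 0.21 without replicate 2. Sinusoidal endothelial cell markers (10 of 10, median 0.24) and stellate cell markers (10 of 10, median 0.34) were higher after CCl4, and their part in these values was not tested.

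The CCl4 effects of the genotypes were compared by their difference. No member passed (limma, 0% of all features called), and 0 had an unadjusted p under 0.05, where 4.07% of all features did. The smallest p-values belonged to Pcna, at 0.76 ± 0.44 (95% interval -0.2 to 1.72), and Ccne2, at 0.77 ± 0.56 (-0.46 to 2.01). Both moved with the knockout CCl4 arrays: Pcna gave 0.31 and Ccne2 0.04 without replicate 1, and they gave 1.21 and 1.5 without replicate 2. The S phase median of this difference was 0.21, and it was -0.62 without knockout CCl4 replicate 1 and 1.13 without replicate 2. The mitotic median was 0.12, and it was -0.54 and 0.8 in the same order. Either median also fell below 0 without wild-type oil replicate 1 (-0.05 and -0.04) or wild-type CCl4 replicate 1 (-0.01 and -0.04), so neither class had a settled direction. Cdk1 gave 0.14 ± 0.45 (-0.86 to 1.14). Intervals of this width leave room for differences between the genotypes in either direction for Cdk1 and for most of its class.

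**Figure D4:**
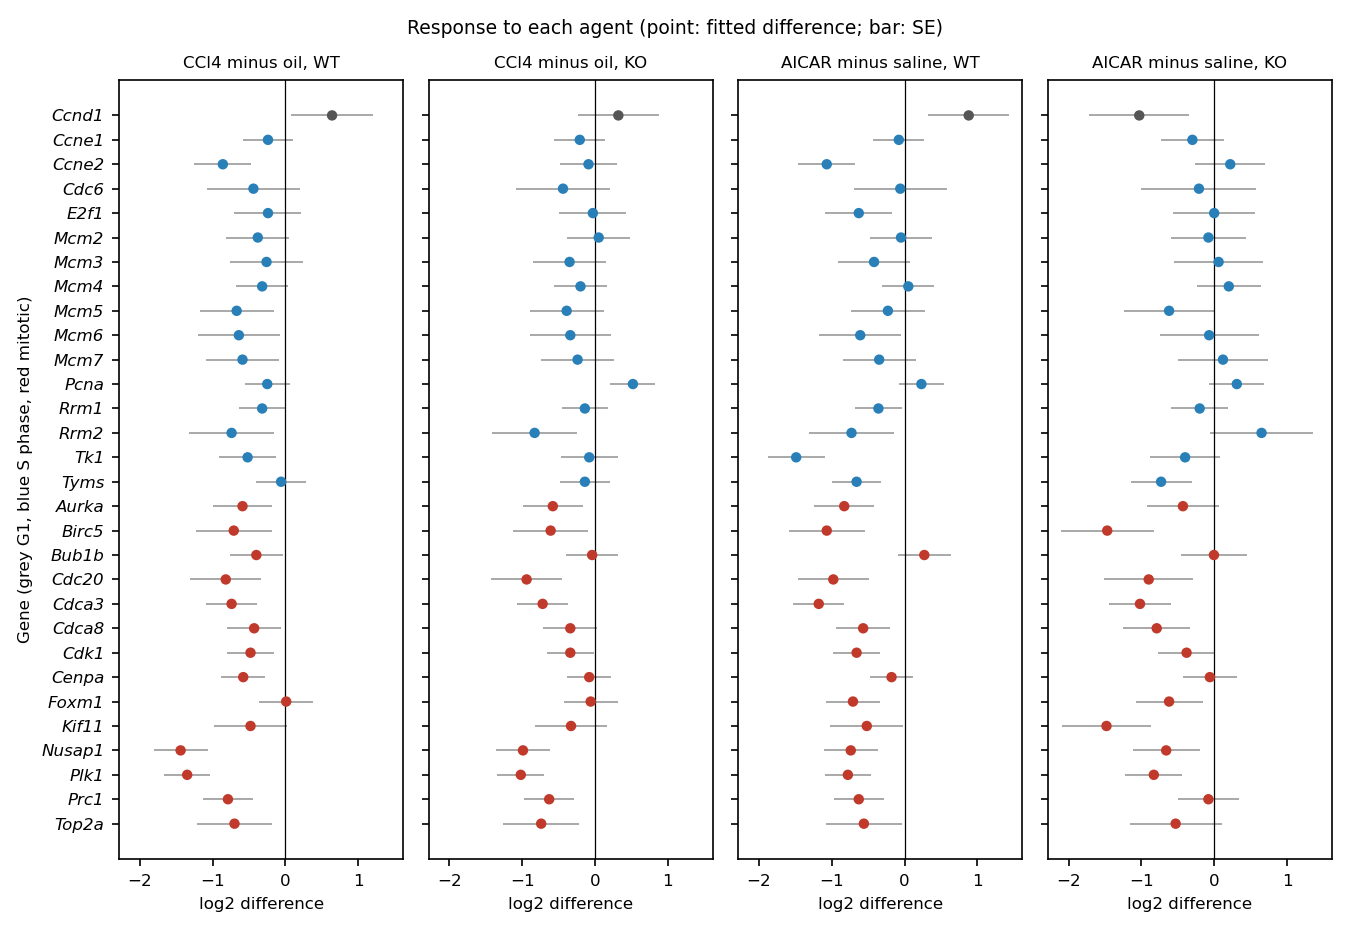
Fitted log2 difference (horizontal axis, points, with SE as bars) of each of the 30 tested genes (vertical axis) for CCl4 minus oil and AICAR minus saline in wild-type (WT) and knockout (KO) liver. Most points lie below 0 in both genotypes with either agent, while Ccnd1 lies at 0.88 after AICAR in wild-type and at -1.03 in knockout liver.

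AICAR was compared with saline in wild-type liver to ask how these genes differed after it. The activity of AMPK is not read by these arrays. Of the 30 members 26 had lower values after AICAR, where 47.7% of all features did, and the median difference was -0.59 beside 0.02 over all features. None passed (limma), where 0.00882% of all features did, and 4 were lower at an unadjusted p under 0.05, where 5.07% of all features were. Tk1, the thymidine kinase of the salvage pathway, had 10.55 and 10.14 in saline and 8.54 and 9.18 after AICAR (-1.49 ± 0.39, SE; limma adjusted p = 0.27, 2 against 2 samples). Cdca3, which in frog and human cells promotes the breakdown of the mitotic inhibitor Wee1, had 9.82 and 9.57 in saline and 8.72 and 8.31 after AICAR (-1.18 ± 0.35, limma adjusted p = 0.31). Each AICAR array was below both saline arrays in both genes, and with array weights both passed (limma adjusted p = 0.041 for Tk1 and 0.047 for Cdca3). Ccne2 had 7.64 and 7.83 against 6.84 and 6.5 (-1.07 ± 0.39), and Plk1 had 8.97 and 9.06 against 8.49 and 7.98 (-0.78 ± 0.32). Groups did not overlap for 21 members with lower and 1 with higher values, where 24.2% and 28.1% of all features did so. The mitotic median was -0.69, with 13 of 14 lower, and the S phase median was -0.36, with 13 of 15 lower. Neither median turned sign in any fit that left out an array. Cdk1 had 9.6 and 9.75 in saline and 9.21 and 8.81 after AICAR (-0.66 ± 0.32, limma adjusted p = 0.49), and Top2a had 8.71 and 8.88 against 8.5 and 7.96 (-0.56 ± 0.52). Pcna was among the 4 members with higher values, with 7.53 and 7.5 in saline and 7.48 and 8.01 after AICAR (0.23 ± 0.31), and its groups overlapped. Of 10 neutrophil markers 6 were higher and 4 lower after AICAR (median 0.16), and of 6 erythroid markers 3 were higher and 3 lower (median 0.18, lowest Klf1 at -0.84). Their summed signals rested mostly on single bright probes. The neutrophil sum of 21642 and 34137 in saline and 69347 and 64998 after AICAR followed Lcn2, also made by hepatocytes, which had log2 signals of 14.05 and 14.74 in saline and 15.92 and 15.88 after AICAR. The erythroid sum of 18685 and 26288 in saline and 50164 and 45478 after AICAR followed the globin Hba-a1 (14.08 and 14.59 against 15.57 and 15.42). Stellate cell markers were higher in 9 of 10 (median 0.29) and Kupffer cell markers in 8 of 9 (median 0.35). The part of these cells in the lower cell cycle values was not tested.

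In knockout liver the AICAR difference was lower than 0 for 14 of 14 mitotic members (median -0.64) and for 9 of 15 S phase members (median -0.07), where 54.6% of all features were lower and their median was -0.05. None of the 30 passed (limma), where 1.19% of all features did, and 3 were lower at an unadjusted p under 0.05, where 5.15% of all features were. Kif11, the motor that separates the spindle poles, had 6.92 and 6.87 in saline and was not above background after AICAR, so that it was at least 2.34-fold lower (limma adjusted p = 0.35). Such a bound sets the mean of the brighter group against the lowest detected signal on the dim arrays. It holds for these normalized values only and carries no sampling error. Over the 11 other settings the fitted Kif11 difference ran from -1.48 to -0.53. Cdca3 had 10.05 and 10 in saline and 8.87 and 9.14 after AICAR (-1.02 ± 0.43, 2 against 1 samples, limma adjusted p = 0.37). Birc5, the survivin subunit of the chromosomal passenger complex, had 10.24 and 10.23 in saline and 8.86 and 8.67 after AICAR. Cdk1 had 9.42 and 9.62 against 9.26 and 9.03 (-0.38 ± 0.39), and Top2a had 8.77 and 8.73 against 8.02 and 8.42 (-0.53 ± 0.63). Among the S phase members, Pcna had 7.97 and 8.2 in saline and 8.26 and 8.52 after AICAR (0.31 ± 0.38), and Rrm2 had 8.6 and 8.9 in saline and 9.39 and 9.41 after AICAR (0.65 ± 0.71, limma adjusted p = 0.8). The S phase median was -0.0011 without AICAR replicate 1 and -0.00078 without replicate 2, so it lay at about 0. For 19 members the groups did not overlap with lower and for 5 with higher values, where 39.4% and 31.9% of all features did so; with 1 saline sample this is easily met. Markers of other cells were lower in the same comparison: neutrophil and myeloid precursor markers in 10 of 10 (median -1.72, 7 at an unadjusted p under 0.05), lymphocyte markers in 5 of 6 (median -0.88), stellate cell markers in 10 of 10 (median -0.42) and Kupffer cell markers in 7 of 9 (median -0.4). Their part in the lower mitotic values was not tested.

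The AICAR effect of the knockout minus that of the wild-type passed for 0 of the 30 members (limma), where 0.3% of all features passed, and 0 had an unadjusted p under 0.05, where 9.16% of all features did. Ccnd1 had the smallest p, with -1.91 ± 0.89 (95% interval -3.87 to 0.05, limma adjusted p = 0.55). Ccne2 gave 1.29 ± 0.62 (-0.09 to 2.67, limma adjusted p = 0.57). Rrm2 gave 1.38 ± 0.92 (-0.64 to 3.4, limma adjusted p = 0.68) and Tk1 gave 1.09 ± 0.62 (-0.28 to 2.46, limma adjusted p = 0.63). The S phase members with higher values in this difference numbered 10 of 15, where 47.1% of all features were higher, with a median of 0.16, which was 0.3 without wild-type saline replicate 1 and 0.27 and 0.25 without wild-type AICAR replicates 1 and 2. The mitotic members with higher values numbered 9 of 14, with a median of 0.08, which was 0.27 without wild-type AICAR replicate 1 and -0.11 without replicate 2. It was also below 0 without wild-type saline replicate 2 (-0.04) or either knockout AICAR array (-0.07 and -0.0061).

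Ccnd1 was read by 3 kept probes. Its log2 signals were 14.25 and 12.38 in wild-type oil, 13.31 and 14.44 in knockout oil, 13.54 and 14.37 in wild-type CCl4 and 13.89 and 14.51 in knockout CCl4. The oil arrays of either genotype were thus further apart than the arrays of the other groups. In saline it had 13.24 and 13.87 in wild-type and 13.78 and 13.71 in knockout liver. After AICAR it had 14.46 and 14.41 in wild-type and 12.68 and 12.74 in knockout liver. The AICAR arrays agreed within each genotype to under 0.1 log2 units, the wild-type ones above and the knockout ones below all saline arrays. The knockout minus wild-type difference after AICAR was -1.73 ± 0.56 (limma adjusted p = 0.089), and the other probes gave -1.89 and -1.62. It passed when only the arrays compared were fitted (limma adjusted p = 0.0064) and with array weights (0.041). In the rest of the 11 other settings it stayed short of the threshold, among them the authors' normalized values. Without either wild-type oil array the difference was again -1.73. In the interaction the other probes gave -2.07 and -1.81.

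Knockout and wild-type livers were then compared under each agent, which asked whether these genes depend on LKB1. After AICAR none of the 30 members passed (limma), where 7.51% of all features did, while 3 were higher and 1 lower at an unadjusted p under 0.05, where 10.9% and 12.8% of all features were. Rrm2 had 7.79 and 7.42 in wild-type and 9.39 and 9.41 in knockout liver, a difference of 1.79 ± 0.58 (SE; limma adjusted p = 0.088, 2 against 2 samples), which is above each level of Rrm2 in any other group. The same comparison of Rrm2 passed in 4 of 11 other settings, as 1.28 without background correction (limma adjusted p = 0.032) and in the authors' normalized values (0.034), and as 1.79 with array weights (0.037) or with the compared arrays alone (0.0081). It also passed without either knockout CCl4 array (limma adjusted p = 0.0041), a group not in this comparison, whose values of 8.43 and 6.02 enter the shared estimate of the spread. Tk1 had 8.54 and 9.18 in wild-type and 10.05 and 9.77 in knockout liver (1.05 ± 0.39, limma adjusted p = 0.13), and Ccne2 had 6.84 and 6.5 against 7.44 and 7.71 (0.9 ± 0.39, limma adjusted p = 0.2). Pcna had 7.48 and 8.01 against 8.26 and 8.52 (0.65 ± 0.31, limma adjusted p = 0.23). In these 4 S phase genes the groups did not overlap, which held upward for 11 of the 30 members, 8 of them S phase members, and downward for 3, where 25.9% and 31.5% of all features did so. Among the S phase members 13 of 15 were higher, where 47.3% of all features were, with a median of 0.24, and among the mitotic members 9 of 14, with a median of 0.15, which was -0.06 without wild-type AICAR replicate 2. Cdk1 (0.13 ± 0.32), Plk1 (-0.15 ± 0.32) and Top2a (-0.02 ± 0.52) had differences smaller than their errors.

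**Figure D5:**
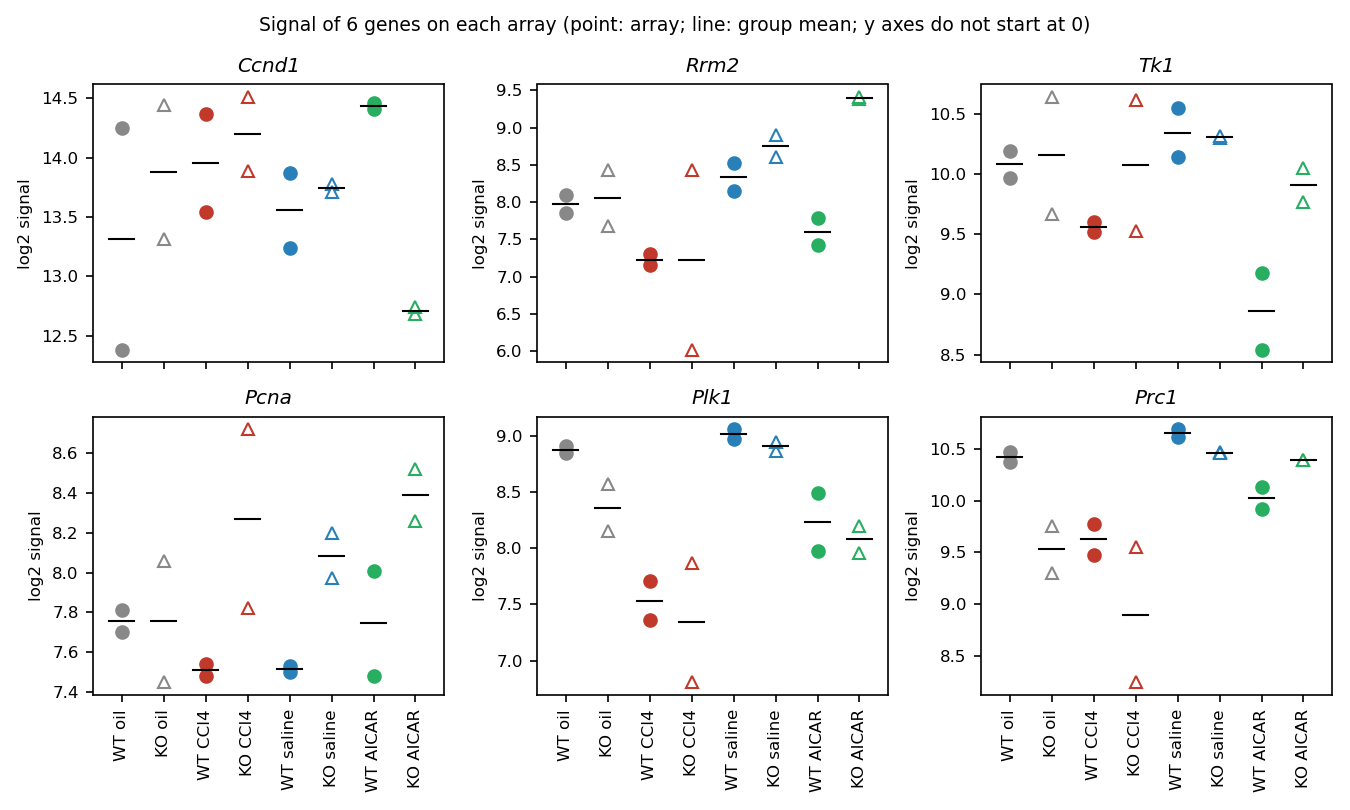
Log2 signal (vertical axes, which do not start at 0) of Ccnd1, Rrm2, Tk1, Pcna, Plk1 and Prc1 on each array in the 8 groups (horizontal axis), with circles for wild-type (WT), triangles for knockout (KO) and a line at the mean of the arrays. After AICAR, Ccnd1 lies at 14.46 and 14.41 in wild-type and at 12.68 and 12.74 in knockout liver, and Rrm2 at 7.79 and 7.42 against 9.39 and 9.41.

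After CCl4 no member passed either (limma, where 1.29% of all features passed), and 1 was higher at an unadjusted p under 0.05, where 5.76% of all features were. This was Pcna, with 7.48 and 7.54 in wild-type and 8.72 and 7.82 in knockout liver (0.76 ± 0.31, limma adjusted p = 0.35), the only member whose groups did not overlap, where 19.3% of all features were higher without overlap. Prc1 had 9.48 and 9.78 in wild-type and 9.55 and 8.25 in knockout liver (-0.73 ± 0.34, limma adjusted p = 0.44). Of the S phase members 14 of 15 were higher in the knockout, where 47.5% of all features were, with a median of 0.49. That median was -0.29 without knockout replicate 1, 1.21 without knockout replicate 2, 0.18 without wild-type replicate 1 and 0.79 without wild-type replicate 2. The mitotic median was -0.05, and it was -0.76 and 0.58 without knockout replicates 1 and 2, and 0.01 without wild-type replicate 2. The Pcna difference was 0.31 and 1.21 without knockout replicates 1 and 2. Without knockout replicate 1, Prc1 passed as lower (-1.38, limma adjusted p = 0.045), and without knockout replicate 2, Mcm2 and Mcm6 passed as higher. The direction of both classes in this comparison thus depended on which knockout array was kept. Sinusoidal endothelial cell markers were lower in the knockout in 9 of 10 (median -0.59, 6 at an unadjusted p under 0.05), and their part was not tested. The hepatocyte marker Ass1 passed as higher in the knockout (1.47 ± 0.23, limma adjusted p = 0.013).

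In oil the classes differed in direction. None passed (limma, where 1.2% of all features passed), and 2 were lower at an unadjusted p under 0.05, where 8.36% of all features were. Both are spindle genes: Nusap1 had 9.71 and 9.09 in wild-type and 8.14 and 8.6 in knockout liver (-1.04 ± 0.37, limma adjusted p = 0.22), and Prc1 had 10.47 and 10.37 against 9.3 and 9.76 (-0.89 ± 0.34, limma adjusted p = 0.25). The knockout arrays lay below the wild-type arrays in both genes, as they did for 5 of the 30 members, and above them for 4, where 20.8% and 20.4% of all features did so. Of the mitotic members 10 of 14 were lower (median -0.13) and of the S phase members 13 of 15 were higher (median 0.29), where 51.3% of all features were lower and 48.7% higher. The mitotic median was 0.07 without wild-type oil replicate 1, and the S phase median was -0.0098 without wild-type oil replicate 2, 0.57 without wild-type oil replicate 1, 0.16 without knockout oil replicate 1 and 0.44 without knockout oil replicate 2. The mitotic median was also -0.32 without wild-type oil replicate 2 and -0.22 without knockout oil replicate 1. Pcna had 7.81 and 7.7 in wild-type and 8.06 and 7.45 in knockout liver, and its groups overlapped. Sinusoidal endothelial cell markers were lower in the knockout in 8 of 10 (median -0.7, 6 at an unadjusted p under 0.05) and stellate cell markers in 8 of 10 (median -0.34), and their part in these values was not tested. Of the marker lists, erythroid Tfrc (1.59 ± 0.33, limma adjusted p = 0.047) and hepatocyte Ass1 (1.18 ± 0.23, 0.036) passed as higher in the knockout.

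In saline, with 1 knockout sample, none passed (limma, where 0.132% of all features passed) and 0 had an unadjusted p under 0.05, where 4.78% of all features did. The smallest p-values were those of Kif11, with 5.43 and 6.45 in wild-type and 6.92 and 6.87 in knockout liver (0.96 ± 0.61, limma adjusted p = 1), and Pcna, with 7.53 and 7.5 against 7.97 and 8.2 (0.57 ± 0.38, limma adjusted p = 1). Kif11 was detected on 1 of the wild-type saline arrays. The S phase members were divided in saline, 8 higher and 7 lower in the knockout, with a median of 0.14 beside 0.0048 over all features. The mitotic median was 0.03. Over both vehicles, 0 members passed (limma, where 1.32% of all features passed) and 0 had an unadjusted p under 0.05, where 12.4% of all features did. The smallest p-values there were those of Prc1 (-0.54 ± 0.27) and Ccne2 (-0.51 ± 0.31).

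Averaged over the 4 agents, the knockout had higher values for 15 of 15 S phase members, where 47.6% of all features were higher. The lowest was Ccne2 at 0.0014, and in saline alone these members were divided, as given above. Their median was 0.3 beside -0.02 over all features, and it was 0.11 without knockout CCl4 replicate 1 and 0.45 without replicate 2. The mitotic members were divided, 7 higher and 7 lower, with a median of 0.0027, which was -0.15 and 0.17 without knockout CCl4 replicates 1 and 2. None of the 30 passed (limma, where 9.22% of all features passed), and 1 was higher at an unadjusted p under 0.05, where 11.2% of all features were. This was Pcna, at 0.49 ± 0.16 (limma adjusted p = 0.088), and the next smallest p was that of Ccne1, the cyclin E1 that starts S phase (0.38 ± 0.19, limma adjusted p = 0.25). In wild-type liver Ccne1 had 8.33 and 7.59 in oil, 7.33 and 8.1 after CCl4, 7.67 and 7.6 in saline and 7.35 and 7.76 after AICAR. In knockout liver it had 8.47 and 8.38, 8.39 and 8.04, 8.11 and 7.93, and 8.14 and 7.29 in the same order. Its knockout arrays lay above the wild-type ones in oil and saline and overlapped them after CCl4 and AICAR. Pcna passed with all 16 arrays as samples (0.49, limma adjusted p = 0.045) and without knockout CCl4 replicate 2 (0.61, limma adjusted p = 0.024). In all, 5 S phase members passed without that array (Mcm2, Mcm6, Pcna, Rrm1 and Rrm2), and without knockout CCl4 replicate 1 it was Prc1, as lower. Stellate cell markers were lower in the knockout in 10 of 10 (median -0.34), sinusoidal endothelial cell markers in 9 of 10 (median -0.33) and Kupffer cell markers in 9 of 9 (median -0.27). Pecam1 (-0.57 ± 0.1, limma adjusted p = 0.0068), Fcgr2b (-0.53 ± 0.12, 0.018) and Reln (-0.95 ± 0.19, 0.012) of the first 2 lists passed as lower. Passing as higher were Mpo of the neutrophil and myeloid precursor list (1.17 ± 0.24, limma adjusted p = 0.013), Tfrc of the erythroid list (0.71 ± 0.17, 0.03) and the hepatocyte marker Ass1 (0.89 ± 0.12, 0.0012). The part of these cells was not tested.

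The vehicles were compared over both genotypes, oil against saline. None of the 30 members passed (limma, where 0% of all features passed), while 2 were lower and 1 higher at an unadjusted p under 0.05, where 4.37% and 5.99% of all features were. Tyms, which makes thymidylate, had 10.29, 9.71, 10.4 and 10.15 on the oil arrays and 10.63, 10.75, 11.03 and 10.97 on the saline arrays (-0.71 ± 0.27, limma adjusted p = 0.39). Mcm4, a helicase subunit, had 11.81, 11.44, 12.12 and 11.86 in oil and 11.04, 11.34, 11.09 and 10.94 in saline (0.71 ± 0.29, limma adjusted p = 0.42). In both genes the vehicles did not overlap, although they are S phase genes with differences in opposite directions. Oil lay below saline without overlap for 5 of the 30 members and above it for 2, where 4.6% and 5.45% of all features did so. Of the mitotic members 13 of 14 were lower in oil, where 49.1% of all features were, with a median of -0.4. The S phase members were divided, with 6 lower and 9 higher and a median of 0.12, which was 0.03 without knockout oil replicate 1, 0.05 without wild-type oil replicate 1 and 0.21 without knockout oil replicate 2. Markers of other cells were also lower in oil: neutrophil and myeloid precursor markers in 9 of 10 (median -1.01, 6 at an unadjusted p under 0.05), lymphocyte markers in 5 of 6 (median -0.54) and sinusoidal endothelial cell markers in 8 of 10 (median -0.49, 4 at an unadjusted p under 0.05). Their part in the lower mitotic values was not tested.

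Other genes of the pathway, in lists chosen like the members with earlier results of these data known, gave 6 genes that passed in some comparison. Of 4 tested G1 cyclins and kinases 1, Ccnd3 (cyclin D3), passed over the 4 agents, where 9.22% of all features passed. Ccnd3 had log2 signals of 10.34 to 10.81 on the wild-type arrays and 10.49 to 11.87 on the knockout arrays. Over the 4 agents it rose in the knockout by 0.73 ± 0.14 (limma adjusted p = 0.0077). Its other probes gave 0.88 and 0.15. Of 8 CDK inhibitors and pocket proteins, 2 passed as higher in the knockout after AICAR, where 7.51% of all features passed. Cdkn1a, the CDK inhibitor p21, had 12.44 and 12.06 in wild-type and 13.79 and 13.55 in knockout liver (1.42 ± 0.25, limma adjusted p = 0.0076), with 1.45 and 1.95 from other probes, and the call was lost without wild-type AICAR replicate 2 (1.23, limma adjusted p = 0.078) or knockout AICAR replicate 1 (1.3, limma adjusted p = 0.06). Cdkn2b, which inhibits the cyclin D kinases, had 6.79 and 5.23 against 8.24 and 8.41 (2.31 ± 0.55, limma adjusted p = 0.03), and was detected on 1 of the wild-type arrays. That call was lost without wild-type AICAR replicate 2 (1.53, limma adjusted p = 0.21) and without knockout AICAR replicate 1 (0.11) or 2 (0.13). Both genes inhibit kinases of G1, and Ccnd1, which activates such kinases, had the lower values already given in the same livers, short of the threshold. In the same comparison 13 of 15 S phase members were higher (median 0.24). A link between these values was not tested.

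Rb1, the retinoblastoma protein that holds E2F factors, fell in the knockout in oil and over the 4 agents (1.2% and 9.22% of features passed). In oil it had 9.72 and 10.16 in wild-type and 8.91 and 8.79 in knockout liver (-1.09 ± 0.21, limma adjusted p = 0.036), and over the 4 agents the difference was -0.47 ± 0.11 (limma adjusted p = 0.024). The genotypes were also apart after CCl4 (9.51 and 9.43 in wild-type, 8.63 and 8.84 in knockout liver), while they overlapped in saline (9.54 and 9.21 against 9.59 and 9.39) and after AICAR (9.23 and 9.43 against 9.26 and 9.03). A further Rb1 probe gave -0.93 and -0.39. In oil it no longer passed when wild-type oil replicate 2 (-0.87, limma adjusted p = 0.16) or either knockout oil array (adjusted p = 0.11 and 0.18) was left out. Array weights (0.13), a fit of the compared arrays alone (0.36) and a block for the replicate numbers (0.052) also ended the call, as did leaving out any array of wild-type CCl4, saline or AICAR or of knockout AICAR (0.05 to 0.062). The call over the 4 agents was lost in 5 fits that left out an array, namely either wild-type CCl4 array (0.055 and 0.051), replicate 2 of knockout oil (0.05), replicate 1 of wild-type saline (0.064) and replicate 2 of wild-type AICAR (0.063).

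Of 34 other mitotic genes tested, 2 passed, both after AICAR between the genotypes, where 7.51% of all features passed, so the list's share of calls was no higher than that of all features. Aspm, which focuses the spindle poles, was not above background in wild-type liver (4.87 and 4.88) and had 6.65 and 6.65 in knockout liver, at least 2.17-fold higher (limma adjusted p = 0.0051). Pttg1, the securin that guards separase, was not above background in knockout liver (4.94 and 4.88) and had 5.95 and 5.93 in wild-type liver, at least 1.2-fold lower in the knockout (limma adjusted p = 0.04). The Pttg1 call was lost without any 1 of the 4 AICAR arrays (limma adjusted p = 0.13 to 0.18) without either wild-type CCl4 array (0.055) and in 4 of the 11 other settings. These 2 mitotic genes moved in opposite directions. Of 32 other replication genes and 8 other E2F factors, 0 passed in any of the 13 comparisons (limma), and at an unadjusted p under 0.05 between 0 and 2 of the first and between 0 and 3 of the second did. The 34 other mitotic genes were lower for 31 after CCl4 in wild-type liver (median -0.39), for 27 in knockout liver (-0.37), and after AICAR for 30 (-0.37) and 31 (-0.56). Of all features 48.9%, 46.1%, 47.7% and 54.6% were lower, in the same order. The other replication genes were lower for 24 and 20 of 32 after CCl4 (medians -0.26 and -0.1) and for 23 and 25 after AICAR (-0.17 and -0.27). At an unadjusted p under 0.05, 2 to 6 of these 34 mitotic genes were lower in each of the 4 comparisons. In the same order, 4.12%, 1.86%, 5.07% and 5.15% of all features were.

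Markers of other cells that could carry cycling transcripts differed between the AICAR livers of the genotypes. Lcn2, a neutrophil granule gene that hepatocytes also make, fell by 3.51 ± 0.63 on the log2 scale in the knockout (limma adjusted p = 0.008). The globin Hba-a1 also passed as lower (-2.21 ± 0.59, limma adjusted p = 0.045). So did the stellate cell markers Pdgfrb (-1.33 ± 0.31, limma adjusted p = 0.028), Col1a1 (-2.52 ± 0.63, 0.037) and Acta2 (-3.26 ± 0.82, 0.037). The summed signal of the 10 neutrophil markers was 69347 and 64998 in wild-type and 8110 and 9292 in knockout AICAR livers. It rested mostly on Lcn2, with log2 signals of 15.92 and 15.88 in wild-type and 11.88 and 12.89 in knockout liver. The summed signal of the 9 Kupffer cell markers was 35289 and 46330 against 17576 and 21918, and that of the 6 lymphocyte markers was 1559 and 1302 against 851 and 1076. Hepatocyte markers summed to 281178 and 288719 against 306554 and 310867. Ctsg and Cxcr2 among the neutrophil markers and Cd5l among the Kupffer cell markers were not above background on at least 2 arrays. In 10 stellate cell markers the summed signal was 22596 and 21092 in wild-type and 11756 and 12688 in knockout AICAR livers. By gene, 9 of 10 neutrophil (median -1.19), 8 of 9 Kupffer cell (median -1.02), 6 of 6 lymphocyte (median -0.54) and 10 of 10 stellate cell markers (median -0.8) were lower in the knockout. The erythroid list was divided, with 4 of 6 lower (median -0.22) and Klf1 higher by 1.18, and its summed signal, 50164 and 45478 against 11973 and 12422, followed Hba-a1 (15.57 and 15.42 against 13.28 and 13.28). Leukocyte and stellate cell markers thus had lower values, and Rrm2 and Tk1 higher ones, in the knockout AICAR livers; the part of these cells in the values above was not tested.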

How the data were processed

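Per the labels' protocols, total RNA was extracted from liver with Trizol and column clean-up and labelled as biotinylated cRNA for 1-colour Illumina arrays. The authors' deposited table gives each probe's intensity, not normalized, with a detection p-value deposited beside it. Per the submitters' processing notes the software was GenomeStudio, for which the sources used here give no version. A further table of normalized intensity by the authors served as an alternative.

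Normalization and fits used limma 3.58.1 in R 4.3.3: neqc (normexp background correction with negative controls inferred from the detection p-values, offset 16, quantile normalization, log2). A probe entered if 2 or more arrays had a detection p-value under 0.05 (15411 did), and the brightest such probe stood for a gene, which left 11338 features. Group means were fitted over 15 samples (7 residual degrees of freedom), with the knockout saline arrays averaged, for 13 comparisons. P-values are two-sided and adjusted over all features by Benjamini and Hochberg. The groups have 2 arrays each, and their number limits the precision. The fitting steps were tested on simulated data. A group with no detected array got a bound only: the mean of the bright group over the lowest signal detected on the dim arrays.

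The members, lists and tests were chosen with earlier results of these data known. Values per array are given for the 2 members with the smallest unadjusted p in each comparison and always for Ccnd1, Pcna, Cdk1 and Top2a, and as ranges for Stk11 and for Ccna2, which was at background; of the other lists, the called genes are named. Members named beyond this rule were chosen after their values were seen. Of 16 further kept probes of 10 members, 36 of 208 differences had the opposite sign, 0 of those with an unadjusted p under 0.05.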

Additional observations from a re-analysis of the deposited data

Results flagged for a closer look

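In 4 members each AICAR array of the wild-type lay on the other side of its saline arrays than in the knockout, so that the genotypes moved in opposite directions. The same pattern was met by 15.7% of all features, in part because the knockout saline livers count as 1 sample. The interaction, as the log2 difference of knockout minus wild-type effects, was 1.29 for Ccne2, 0.47 for Mcm7, 1.38 for Rrm2 and -1.91 for Ccnd1, and none of the 4 passed limma's threshold after adjustment. Ccne2, Mcm7 and Rrm2 were lower after AICAR in the wild-type and higher in the knockout, and Ccnd1 was the reverse. With CCl4, 0 members and 3.28% of all features met it.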

How the results depend on the processing

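With 11 other settings and 16 fits that left out an array, no result turned direction past the threshold. No member passed in the main fits and the medians carry no p-value, so this says little of their direction. Class medians did turn sign. For CCl4 in the knockout they went from -0.2 to 0.64 (S phase) and from -0.6 to 0.21 (mitotic) without knockout CCl4 replicate 2. The S phase median of the CCl4 interaction went from 0.21 to -0.62 without replicate 1. The members called after AICAR in wild-type liver were 2 with array weights. Those called between genotypes after AICAR were 1 without background correction, 1 in the authors' normalized values, 2 with array weights and 2 with the compared arrays alone. Over the 4 agents the count was 1 with all 16 arrays as samples. Leaving out an array gave 0 to 2 members between genotypes after CCl4, 0 to 1 after AICAR and 0 to 5 over the 4 agents. The cause was not tested, apart from the fewer samples. In the other 10 comparisons the count was 0 in each fit that left out an array. With the replicate number as a block, 0 members were called in any of the 13 comparisons. The numbers do not pair the samples: over 21 pairs of groups, deviations of same-numbered arrays had correlations of -0.4 to 0.48, and 6 were over 0.1. Signal near background limits Kif11, Bub1b, Aspm, Pttg1 and Cdkn2b. The sources used here name no slides, so none could be fitted as a batch, and 2 arrays a group leave wide intervals: a count of 0 does not show that a gene did not differ.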
